A study of Mus musculus with 45 samples.

Results

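Toll-like receptors are innate immune sensors, and in the brain they are expressed chiefly by microglia, the resident macrophages. They recognise microbial products and molecules released by damaged cells, and most of them signal through the adaptor Myd88 to the NF-kB transcription factors, while Tlr3 signals through the adaptor Ticam1. Cd14 is a membrane-anchored co-receptor that passes ligands to Tlr4 and Tlr2. The gene set described here was fixed by name as Tlr2, Tlr3, Tlr4, Tlr7, Cd14 and Myd88. A row was present for 5 of the 6 genes among the 15897 genes of the table, and Tlr4 was not analysed here.

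The values come from the hippocampus of 45 female mice of the C57Bl/6J strain, in 8 groups of 4 genotypes and 2 diets. A+ mice carry the APPswe/PS1dE9 transgenes, driven by the mouse prion protein promoter, and develop β-amyloid plaques. T+ mice carry human tau with the P301L change under the CaMKII promoter, which is active in forebrain neurons. AwTw mice carry neither, AwT+ mice carry tau alone, A+Tw mice carry APPswe/PS1dE9 alone and A+T+ mice carry both. The standard diet (STD) held 5% fat and 0% cholesterol. The typical Western diet (TWD) held 21% fat, 0.15% cholesterol and 35% sucrose, and was given from the age of 7 months until sacrifice at 13 months. There were 6 mice in each AwTw and AwT+ group and in each A+ group on TWD, 5 mice in A+Tw/STD and 4 in A+T+/STD. Each value is a variance-stabilized read count of 1 gene in 1 mouse on a log2-like scale (VSD), corrected for batch by the authors, so that 1 unit is close to a doubling for well-expressed genes and understates the change of low ones. A gene is said to be called where its adjusted p in limma was under 0.05 over all 15897 genes.

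App, to which the A+ construct adds, and Prnp, whose promoter it carries, were higher in all A+ against all Aw mice by 0.90 ± 0.049 and 1.11 ± 0.045 (log2 difference ± SE, both called). Mapt differed by -0.06 ± 0.055 (limma adjusted p = 0.614). T+ and Tw groups have equal weight on both sides of that comparison, so it cannot show the tau transgene. The paper reports raised human MAPT in AwT+ and A+T+ mice, from reads aligned to human transcripts. All 8 hippocampal markers and all 12 microglia markers had rows, whereas 0 of 8 monocyte and neutrophil markers did. The mean of 8 choroid plexus markers varied between 6.53 and 11.2 among mice, and correlations between mice ranged from 0.858 to 0.990. The lowest median correlation with the other mice, 0.941, belonged to A+T+/TWD mouse 1.

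Promoter sequences are given for Tlr2, Tlr3 and Myd88, and those of Cd14 and Tlr7 are not reported here. They are from RefSeq (GRCm38.p6), 250 bases before to 50 bases after the start that RefSeq gives, and are shown 5′ to 3′ on the strand of the gene. The RefSeq start lies 159 bases inside the GENCODE gene span given further on for Tlr2, 700 bases inside it for Tlr3 and 1393 bases inside it for Myd88. The nearest GENCODE transcript start is 159 bases away for Tlr2, at the same base (0) for Tlr3 and 16 bases away for Myd88. The sequences were not chosen by how these genes followed the A+ genotype. Capitals mark matches to the NF-kB consensus in Tlr2 and Tlr3, and to the interferon response core in Myd88 (GAAA repeated after 2 bases of any kind), both searched on both strands.
Tlr2, chr3:83841559-83841858, minus strand: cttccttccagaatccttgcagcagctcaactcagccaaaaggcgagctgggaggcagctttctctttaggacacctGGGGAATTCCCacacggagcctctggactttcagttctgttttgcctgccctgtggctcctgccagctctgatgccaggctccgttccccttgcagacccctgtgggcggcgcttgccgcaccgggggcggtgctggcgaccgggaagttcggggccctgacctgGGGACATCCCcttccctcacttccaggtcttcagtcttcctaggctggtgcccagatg
Tlr3, chr8:45410331-45410630, minus strand: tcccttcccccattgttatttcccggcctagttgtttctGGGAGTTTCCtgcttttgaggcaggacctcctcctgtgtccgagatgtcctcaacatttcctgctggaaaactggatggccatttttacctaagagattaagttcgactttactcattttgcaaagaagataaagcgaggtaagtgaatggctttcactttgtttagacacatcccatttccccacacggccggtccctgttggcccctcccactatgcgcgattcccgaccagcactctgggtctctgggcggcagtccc
Myd88, chr9:119339969-119340268, minus strand: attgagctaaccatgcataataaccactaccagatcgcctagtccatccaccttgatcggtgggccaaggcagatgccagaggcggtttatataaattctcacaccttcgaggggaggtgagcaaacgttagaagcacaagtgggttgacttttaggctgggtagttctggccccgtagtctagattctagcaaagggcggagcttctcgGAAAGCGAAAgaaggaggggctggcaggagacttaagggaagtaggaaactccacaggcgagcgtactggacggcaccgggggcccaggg
In Tlr2 overlapping NF-kB matches lie from position -173 to -163 relative to the RefSeq start, and a further one spans that start from -8 to 2. The Tlr3 match lies from -211 to -202, and the Myd88 match from -40 to -31. The NF-kB consensus occurs in 4.51% and the interferon response core in 3.44% of all 32851 promoters of this length. The PU.1 core GAGGAA, found in 28.3% of all promoters, was not in these windows. A match is a stretch of letters and not a measured binding site.

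Cd14 and Tlr2 were higher in A+ mice with and without tau and on both diets, Tlr7 was called higher when all A+ were set against all Aw mice but in none of the single comparisons with AwTw, and Tlr3 and Myd88 were not called in any genotype comparison. In each of the 4 comparisons of A+Tw or A+T+ with AwTw, 2 of the 5 genes were called, both higher. Of all genes 0.925% were called for A+Tw on STD, 0.824% for A+Tw on TWD, 1.32% for A+T+ on STD and 0.73% for A+T+ on TWD. On the same diet A+Tw and A+T+ share the AwTw mice they are compared with. The plot of values by mouse shows all 45 mice.

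**Figure D1:**
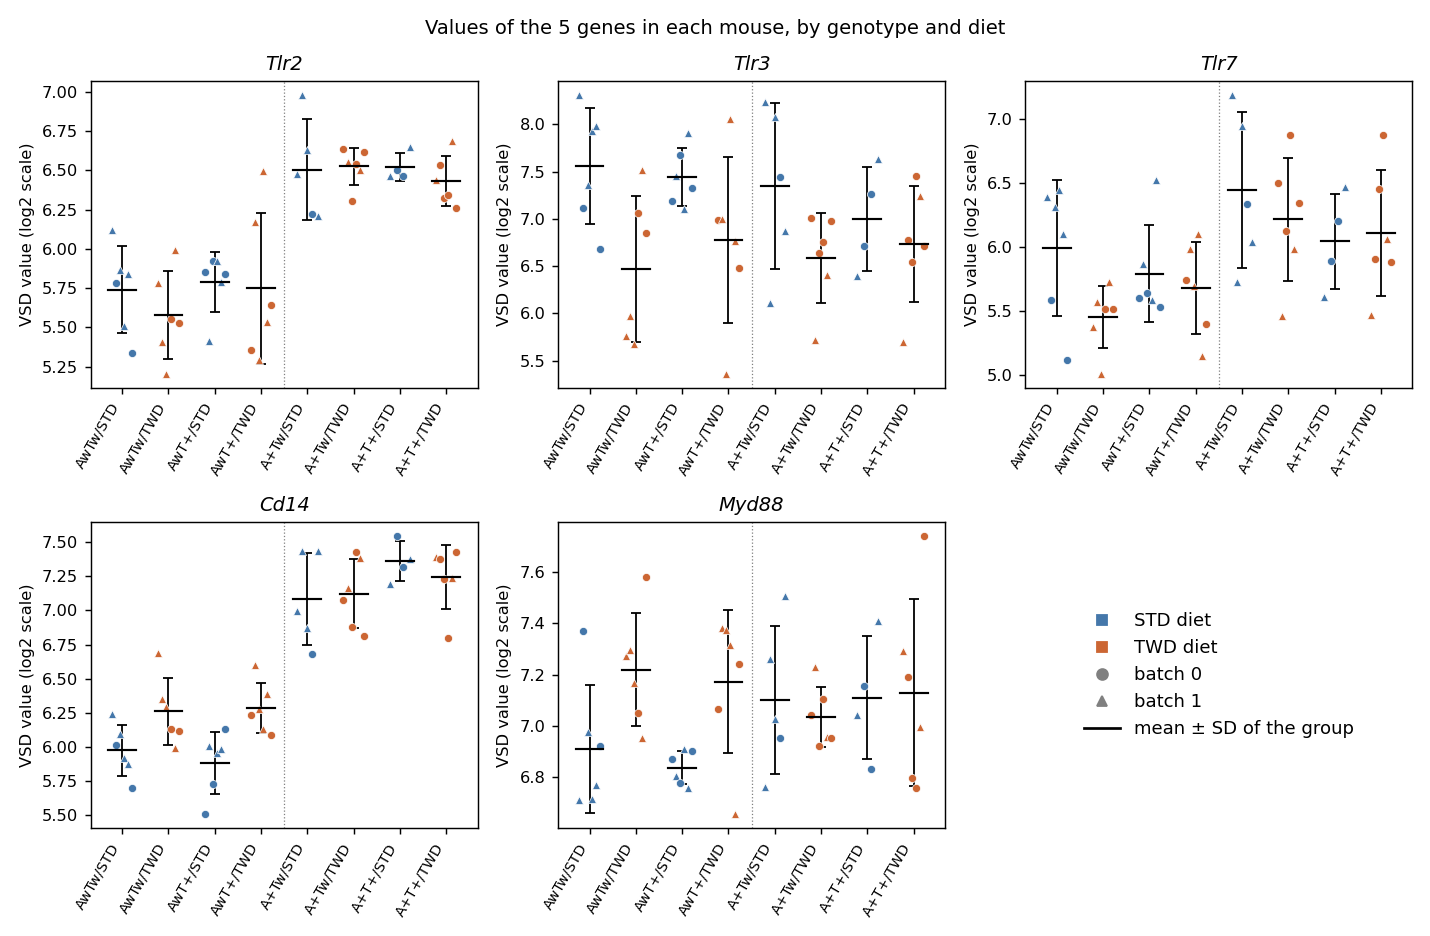
VSD values (log2 scale, vertical axis) of the 5 genes in each of 45 mice for the 8 groups on the horizontal axis, with colour for diet and marker shape for batch, and black bars for the group mean ± SD. For Cd14 the lowest A+ mouse is at 6.68 and the highest Aw mouse at 6.69, whereas the Myd88 values of Aw and A+ mice lie across one another.

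Cd14 (ENSMUSG00000051439, chr18:36725067-36726798, minus strand, GRCm38) was measured at 6.68, 6.87, 6.99, 7.43 and 7.44 in the 5 A+Tw/STD mice. In the 4 A+T+/STD mice it was 7.19, 7.32, 7.38 and 7.55. In A+Tw/TWD it ran from 6.81 through a median of 7.12 to 7.43. In A+T+/TWD it ran from 6.80 through 7.30 to 7.42. These 21 A+ mice formed a high cluster. The Aw mice lay lower, with 5.70, 5.97 and 6.24 as lowest, median and highest in AwTw/STD, and 5.51, 5.97 and 6.13 in AwT+/STD. On TWD the same values were 5.99, 6.21 and 6.69 in AwTw and 6.09, 6.26 and 6.60 in AwT+. On either diet every A+ mouse was above every Aw mouse of that diet, and over both diets 20 of the 21 A+ mice were above all 24 Aw mice. How many genes of the whole table separate the pooled A+ and Aw mice in this way was not counted.

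Against AwTw, Cd14 was higher by 1.08 ± 0.136 in A+Tw on STD (log2 difference ± SE, limma adjusted p = 6.73e-07). The difference was 0.92 ± 0.132 in A+Tw on TWD (adjusted p = 9.33e-06), 1.41 ± 0.146 in A+T+ on STD (adjusted p = 8.16e-09) and 1.04 ± 0.132 in A+T+ on TWD (adjusted p = 1.14e-06). Groups without overlap and with the first group higher were found for 1.14%, 0.61%, 2.82% and 0.528% of all genes in these comparisons, in the same order. Within mice carrying tau, A+T+ exceeded AwT+ by 1.47 ± 0.145 on STD (adjusted p = 2.41e-09) and by 1.01 ± 0.132 on TWD (adjusted p = 1.55e-06), again without overlap. In these 2 comparisons 0.95% and 0.761% of all genes were called, and 3.45% and 0.535% had groups without overlap and with A+T+ higher. Over all A+ against all Aw mice the difference was 1.12 ± 0.068 (2.18-fold on this scale, adjusted p = 2.30e-16), and it was 1.11 within batch 0 and 1.09 within batch 1. In the order of group means, the gap of 0.80 between AwT+/TWD and A+Tw/STD exceeded the SD of either group, as did the gap of 0.29 between AwTw/STD and AwTw/TWD, and the A+ groups above it did not differ from their neighbours beyond their SD.

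Tlr2 (ENSMUSG00000027995, chr3:83836272-83841767, minus strand) encodes the cell-surface receptor that pairs with Tlr1 or Tlr6 to bind lipoproteins. It was at 6.21, 6.22, 6.48, 6.63 and 6.98 in A+Tw/STD and at 6.47, 6.47, 6.50 and 6.65 in A+T+/STD. In A+Tw/TWD the lowest, median and highest values were 6.30, 6.55 and 6.64, and in A+T+/TWD they were 6.26, 6.39 and 6.69. The A+ groups thus lay close together. In AwTw/STD Tlr2 ran from 5.33 through 5.81 to 6.12, and in AwTw/TWD from 5.21 through 5.54 to 6.00. In AwT+/STD it ran from 5.42 through 5.84 to 5.93, and in AwT+/TWD from 5.29 through 5.59 to 6.49. On STD all 9 A+ mice were above all 12 Aw mice, a pattern that was not counted over all genes. On TWD 11 of the 12 Aw mice were below every A+ mouse, the exception being AwT+/TWD mouse 4 at 6.49.

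Tlr2 was higher than in AwTw by 0.75 ± 0.163 in A+Tw on STD (limma adjusted p = 0.00745), by 0.99 ± 0.157 in A+Tw on TWD (adjusted p = 6.23e-05), by 0.80 ± 0.173 in A+T+ on STD (adjusted p = 0.00612) and by 0.90 ± 0.157 in A+T+ on TWD (adjusted p = 0.000386). Without A+Tw/STD mouse 2, the highest Tlr2 value of all mice, the first of these was 0.63 with an adjusted p of 0.0668. Against AwT+, A+T+ was higher by 0.73 ± 0.173 on STD (adjusted p = 0.0185), where the groups did not overlap, and by 0.73 ± 0.157 on TWD (adjusted p = 0.00757), where they did. The STD call was lost without AwT+/STD mouse 2 (0.64, adjusted p = 0.0809) and without A+T+/STD mouse 2 (0.71, adjusted p = 0.0878), mouse 3 (0.73, adjusted p = 0.0621) or mouse 4 (0.71, adjusted p = 0.0758). The TWD call was lost without AwT+/TWD mouse 1 (0.66, adjusted p = 0.0508). Over all A+ against all Aw mice Tlr2 differed by 0.80 ± 0.081 (1.74-fold on this scale, adjusted p = 7.03e-10), with 0.78 in batch 0 and 0.80 in batch 1. In the order of group means the 4 Aw groups came first, and only the gap of 0.64 between AwT+/STD and A+T+/TWD exceeded the SD of the groups beside it.

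Tlr7 (ENSMUSG00000044583, chrX:167304929-167330558, minus strand) encodes an endosomal receptor for single-stranded RNA. Its values in A+Tw/STD were 5.72, 6.04, 6.34, 6.94 and 7.18, and in A+T+/STD they were 5.61, 5.89, 6.20 and 6.46. In A+Tw/TWD it ran from 5.46 through 6.23 to 6.87 and in A+T+/TWD from 5.47 through 5.98 to 6.87. The A+ mice spread widely within each group. In the Aw groups the lowest, median and highest values were 5.11, 6.21 and 6.44 in AwTw/STD, 5.01, 5.52 and 5.73 in AwTw/TWD, 5.53, 5.62 and 6.52 in AwT+/STD, and 5.15, 5.72 and 6.10 in AwT+/TWD. All groups overlapped their neighbours, and no step in the order of the 8 group means was larger than the SD of the groups beside it.

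None of the 4 comparisons with AwTw called Tlr7 in the fit of the 8 groups and batch. The differences were 0.45 ± 0.264 for A+Tw on STD (limma adjusted p = 0.785), 0.78 ± 0.256 for A+Tw on TWD (adjusted p = 0.302), 0.06 ± 0.282 for A+T+ on STD (adjusted p = 0.932) and 0.67 ± 0.256 for A+T+ on TWD (adjusted p = 0.436). A score of the residual component described further on, which can hold part of the genotype difference, was also used as a covariate. With it the difference of A+Tw was called on either diet, at 0.70 on STD (limma adjusted p = 0.0321) and 0.75 on TWD (adjusted p = 0.00803). Over all A+ against all Aw mice Tlr7 was higher by 0.48 ± 0.132 (adjusted p = 0.0269), in a comparison in which 3.77% of all genes and 3 of the 5 genes of the set were called. The difference was 0.77 in batch 0 (adjusted p = 0.00869) and 0.14 in batch 1 (adjusted p = 0.69), and the difference between batches was not tested. The call was lost without A+T+/STD mouse 4 (0.44, adjusted p = 0.0667), A+Tw/STD mouse 1 (0.43, adjusted p = 0.0538) or AwTw/STD mouse 6 (0.42, adjusted p = 0.0537).

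Myd88 (ENSMUSG00000032508, chr9:119335934-119341411, minus strand), the adaptor shared by Tlr2, Tlr7 and Tlr4, had group means between 6.84 and 7.22, and single mice ran from 6.65 to 7.74. Aw and A+ mice overlapped on both diets. Against AwTw it differed by 0.19 ± 0.152 in A+Tw on STD (limma adjusted p = 0.785), by -0.19 ± 0.147 in A+Tw on TWD (adjusted p = 1.00), by 0.20 ± 0.162 in A+T+ on STD (adjusted p = 0.545) and by -0.09 ± 0.147 in A+T+ on TWD (adjusted p = 0.923). Over all A+ against all Aw mice the difference was 0.06 ± 0.076 (adjusted p = 0.726), with a 95% confidence interval from -0.10 to 0.21. Both Cd14 and Tlr2 lay above that interval.

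Tlr3 (ENSMUSG00000031639, chr8:45395665-45411080, minus strand), the endosomal receptor for double-stranded RNA, had the widest spread among mice, from 5.36 to 8.31. Against AwTw its differences were -0.20 ± 0.388 in A+Tw and -0.58 ± 0.414 in A+T+ on STD, and 0.08 ± 0.375 and 0.23 ± 0.375 on TWD, with adjusted p between 0.482 and 1.00. All A+ against all Aw mice differed by -0.16 ± 0.194 (adjusted p = 0.70, interval from -0.55 to 0.23).

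**Figure D2:**
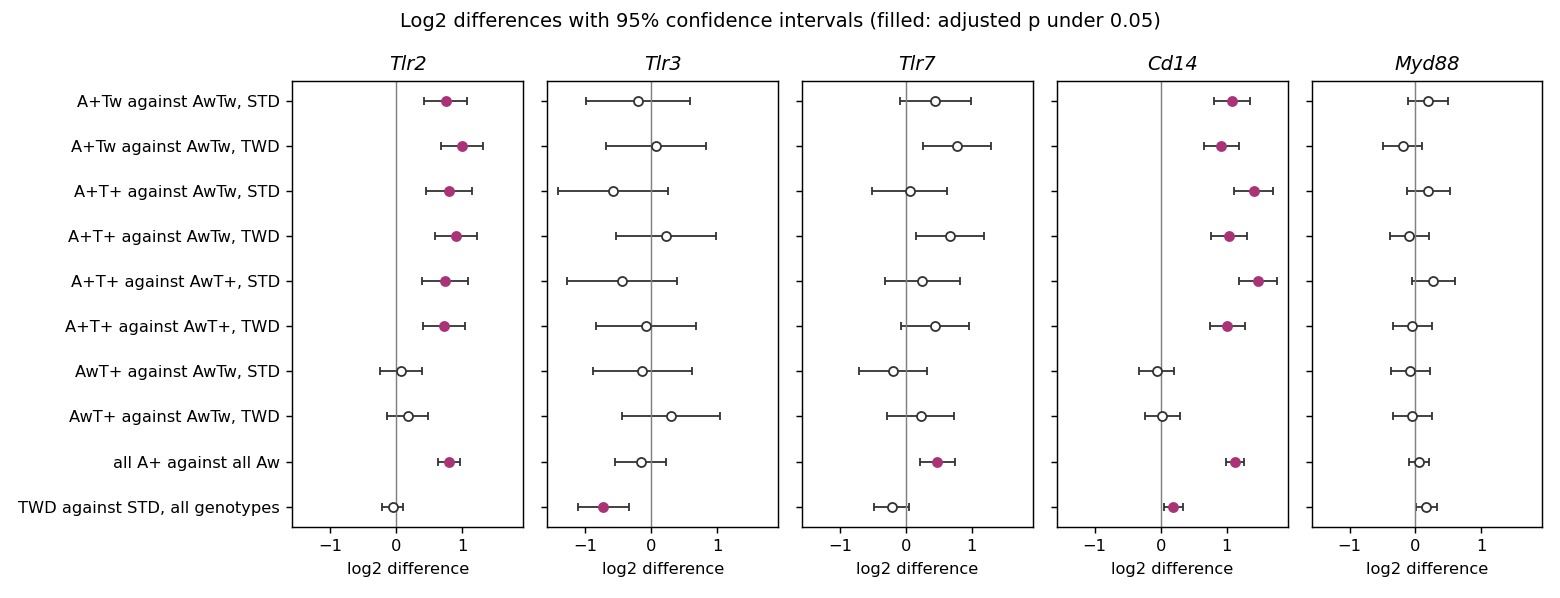
Log2 differences (horizontal axis) of the 5 genes in 10 comparisons (vertical axis), with bars for 95% confidence intervals and filled points for an adjusted p under 0.05. Cd14 is filled in all 6 comparisons of an A+ group with an Aw group of the same diet, between 0.92 and 1.47, and Tlr2 between 0.73 and 0.99, whereas Myd88 has no filled point.

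Tau alone was compared with wild type to ask what it adds without β-amyloid. On STD and on TWD 0 of the 5 genes were called by limma in AwT+ against AwTw, and 0% of all genes were. At an unadjusted p under 0.05 there were 380 genes on STD and 484 on TWD, with 0 of the 5 in either. The Cd14 differences were -0.06 (interval from -0.33 to 0.20) on STD and 0.02 (-0.24 to 0.29) on TWD, and those of Tlr2 were 0.07 (-0.24 to 0.39) and 0.17 (-0.14 to 0.48). Between A+T+ and A+Tw limma also called 0 of the 5, with 0.00629% of all genes called on STD and 0% on TWD. At an unadjusted p under 0.05 there were 1 of the 5 beside 3.88% of all genes on STD, and 0 of the 5 beside 1.31% on TWD. Cd14 was higher in A+T+ than in A+Tw by 0.33 on STD (interval from 0.02 to 0.64, limma adjusted p = 0.999) and by 0.12 (-0.14 to 0.38) on TWD. The test of whether the A+ difference depends on tau called 0 of the 5 genes and 0% of all genes (0 and 232 genes at an unadjusted p under 0.05).

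TWD was compared with STD to ask whether the diet changes these genes or their response to the A+ genotype. Over all genotypes Tlr3 was lower on TWD by a log2 difference of -0.73 ± 0.191 (limma adjusted p = 0.0157) and Cd14 was higher by 0.19 ± 0.070 (adjusted p = 0.0385). These are 2 of the 5 genes, in a comparison in which 29.4% of all genes were called. Myd88 differed by 0.16 ± 0.078 (limma adjusted p = 0.0972), Tlr7 by -0.21 ± 0.131 (adjusted p = 0.20) and Tlr2 by -0.06 ± 0.079 (adjusted p = 0.591). In batch 1 alone, where 6498 genes of the whole table were called, Tlr7 differed by -0.58 (limma adjusted p = 0.0184). None of the 3 tests of whether a genotype difference depends on diet called any of the 5 genes, with 0% of all genes called in each. At an unadjusted p under 0.05 they gave 0 of the 5, and 352 genes for A+Tw, 1001 for A+T+ and 639 for AwT+. For Cd14 the difference of A+T+ from AwTw on TWD minus that on STD was -0.37, with an interval from -0.77 to 0.02 (adjusted p = 0.56).

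Tlr3 ran from 6.11 through a median of 7.35 to 8.31 in the 21 STD mice and from 5.36 through 6.76 to 8.06 in the 24 TWD mice, so the diets overlapped over most of their range. In the 4 A+T+/STD mice it was 6.39, 6.71, 7.26 and 7.63, and in the 5 A+Tw/STD mice 6.11, 6.87, 7.44, 8.08 and 8.23. The lowest, median and highest values were 6.68, 7.64 and 8.31 in AwTw/STD and 7.10, 7.39 and 7.91 in AwT+/STD. On TWD they were 5.68, 6.41 and 7.52 in AwTw and 5.36, 6.87 and 8.06 in AwT+. They were 5.72, 6.70 and 7.00 in A+Tw/TWD and 5.70, 6.74 and 7.46 in A+T+/TWD. The mean was lower on TWD in each of the 4 genotypes, and 0 of these 4 differences were called. They were -1.09 in AwTw (adjusted p = 0.0503, with 9.35% of all genes called), -0.65 in AwT+ (adjusted p = 0.649), -0.81 in A+Tw (adjusted p = 0.706) and -0.28 in A+T+ (adjusted p = 0.998), with 0% of all genes called in the last 3. At an unadjusted p under 0.05, 4 of the 5 genes passed for AwTw mice, 2 for AwT+ mice, 1 for A+Tw mice and 0 for A+T+ mice, beside 40.2%, 7.44%, 4.43% and 2.57% of all genes. With 1 mouse left out the AwTw difference of Tlr3 ran from -1.31 to -0.93, and the genes called in the whole table from 0 to 6072. The Tlr3 difference was called without any 1 of 13 mice. Among these were AwTw/STD mice 2 and 6 and AwTw/TWD mice 4 and 5. The others were AwT+/TWD mice 3 and 4, A+Tw/STD mice 1, 2, 3 and 5, A+Tw/TWD mouse 2 and A+T+/TWD mice 1 and 4. Without any 1 of these others the difference stayed at -1.09, and only its adjusted p changed. In AwTw Cd14 differed by 0.29 (adjusted p = 0.0971), or 0.35 without AwTw/TWD mouse 5 (adjusted p = 0.036). Myd88 differed by 0.31 (adjusted p = 0.107), or 0.40 without AwTw/STD mouse 2 (adjusted p = 0.0374).

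The values of Tlr3 by diet are given within each of the 2 batches. In batch 0 the median was 7.22 in 8 STD mice and 6.81 in 12 TWD mice, with a fitted difference of -0.31 (limma adjusted p = 0.82, 0 genes called in the whole table). In batch 1 it was 7.63 in 13 STD mice and 6.19 in 12 TWD mice, with -1.11 (limma adjusted p = 0.0176, 6498 genes called in the whole table). The difference between batches was not tested. After group and batch were taken out, 41.3% of the remaining variance of all genes lay on 1 component, and over the 45 mice Tlr3 correlated with it at r = 0.93 and Tlr7 at 0.77. The r was 0.35 for Tlr2, -0.40 for Cd14 and -0.47 for Myd88. For diet, a score of the like component from the fit of genotype, diet and batch was used as a covariate. That score is computed from the values and not from the residuals, so it can hold part of the diet difference itself. With it the diet difference of Tlr3 was -0.18 (limma adjusted p = 0.558) and that of Cd14 was 0.11 (adjusted p = 0.665). In that fit 0 genes were called in the whole table, and it cannot separate diet from the component. A score made in the same way from the fit of the 8 groups and batch can hold part of the genotype difference. With that score the A+ difference of Tlr7 was 0.62 (limma adjusted p = 2.37e-06). What these components stand for was not tested.

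**Figure D3:**
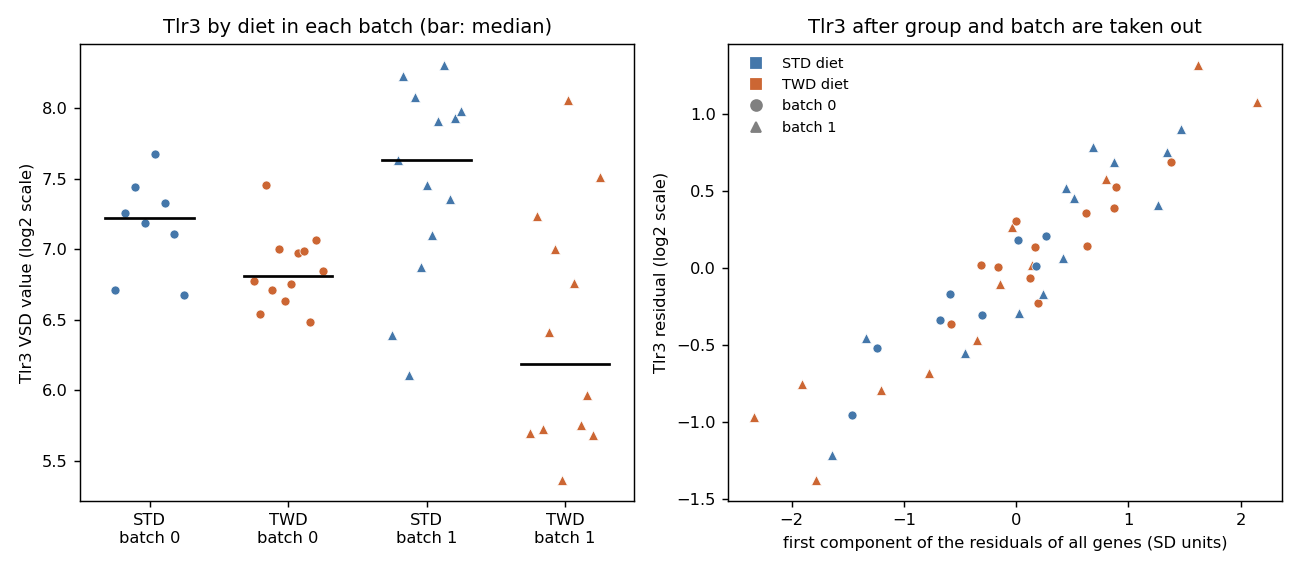
Left, Tlr3 VSD values (vertical axis) by diet within each batch (horizontal axis), 1 point per mouse with a bar for the median, and right, the Tlr3 residual (log2 scale) after group and batch against the first residual component of all genes (SD units), coloured by diet. The gap between diets is wider in batch 1 (medians 7.63 and 6.19) than in batch 0 (7.22 and 6.81), and the residuals follow the component with r = 0.93.

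The Cd14 call over all genotypes rested on small differences that did not share a sign. On TWD against STD Cd14 differed by 0.29 in AwTw and 0.37 in AwT+ (limma adjusted p = 0.0971 and 0.646). It differed by 0.12 in A+Tw and -0.09 in A+T+ (adjusted p = 0.75 and 0.998). None was called, with 9.35% of all genes called in AwTw and 0% in the others. Myd88 differed by 0.31, 0.34, -0.07 and 0.02 in the same order, also without a call. The median of Cd14 was 6.13 in STD and 6.74 in TWD mice over all genotypes, groups that also differ in their share of A+ mice. Over all genotypes the fitted Cd14 difference was 0.16 in batch 0 and 0.23 in batch 1. The difference over both batches lost the call when 1 of 15 mice was left out, with values from 0.17 to 0.19 and limma adjusted p from 0.0502 to 0.069. These mice were AwTw/STD mice 4, 5 and 6, AwTw/TWD mice 1, 2 and 3, AwT+/STD mice 1, 3 and 5, AwT+/TWD mice 2 and 3, A+Tw/STD mice 1, 3 and 4, and A+Tw/TWD mouse 4. Without A+Tw/STD mouse 5, Myd88 was called as well (0.19, adjusted p = 0.045).

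Microglia markers moved in the same direction as Cd14 and Tlr2. In bulk tissue, more cells of a type and more RNA per cell cannot be told apart. The mean of the 12 markers ran from 8.33 to 8.63 in the Aw mice and from 8.67 to 9.27 in the A+ mice. Of the 12, 8 were called higher in all A+ against all Aw mice, with a median of 0.56 and a range from 0.06 to 1.00. All 12 were below the Cd14 difference of 1.12, and 10 of 12 were below that of Tlr2. Tlr7 exceeded 4 of the 12, and Myd88 and Tlr3 were below all of them. Markers of plaque-associated microglia moved further, with 9 of 10 called and a median of 1.05. The part of cell number in the Cd14 and Tlr2 differences was not tested.

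Markers of other tissues were also examined. The 8 choroid plexus markers were higher in all A+ mice by a median of 0.89 with 0 called, and by 2.06 in A+T+ on STD, where the mean of the markers ran from 10.3 to 11.1 against 7.03 to 10.7 in AwTw/STD. With this mean as a covariate, added after the data were seen, the differences over all A+ mice were 1.13 for Cd14 and 0.76 for Tlr2, both called, and 0.50 for Tlr7 (limma adjusted p = 0.0484). Of 6 border macrophage markers limma called 0, and their median difference was 0.16. The part of choroid plexus tissue in the set's values was otherwise not tested.

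Among the other genes of the pathway, 62 listed genes had rows, and 15 of them were called higher and 0 lower in all A+ against all Aw mice, where 3.77% of all genes were called, 3.11% of all genes higher. Of 4 other Toll-like receptors 3 were called, of 8 co-receptors and trafficking factors 3, of 8 transcription factors 4 and of 6 cytokine and enzyme targets 4, while 1 of 5 adaptors, 0 of 17 kinases and ubiquitin ligases, 0 of 11 inhibitors and 0 of 3 endogenous ligands were. The list medians were 0.38, 0.32, 0.18, 0.49, 0.17, -0.04, -0.04 and 0.06 in this order, against -0.02 over all genes tested.

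At the receptor level, Ly86, which encodes the MD-1 partner of Cd180, differed by 1.14 ± 0.070 (limma adjusted p = 3.21e-16) and Cd180, a Toll-like receptor homologue without a signalling domain, by 0.94 ± 0.083 (adjusted p = 1.11e-11). Unc93b1, which carries endosomal receptors such as Tlr7 out of the endoplasmic reticulum, differed by 0.62 ± 0.072 (adjusted p = 1.67e-08). Tlr1, the partner of Tlr2, differed by 0.48 ± 0.107 (adjusted p = 0.0028), a value that is uncertain because Tlr1 and Tlr6 are closely related in sequence and reads could be split between them. Tlr12 and Tlr13 (0.35 and 0.41) were the other receptors called and are named after their values were seen. Among the adaptors Pik3ap1, which links Toll-like receptors to PI3K, differed by 0.43 ± 0.076 (adjusted p = 0.000134).

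Downstream, Irf5, a transcription factor that acts after Myd88, differed by 0.67 ± 0.067 (limma adjusted p = 4.89e-10), Irf7 by 0.44 ± 0.109 (adjusted p = 0.0111, or 0.31 and 0.123 with the choroid plexus covariate) and Nfkb2, an NF-kB subunit, by 0.29 ± 0.063 (adjusted p = 0.00277). Rela (0.20), the fourth, is named after its value was seen. The chemokine genes Ccl3 and Ccl4 differed by 1.69 ± 0.078 (adjusted p = 3.10e-20) and 0.87 ± 0.077 (adjusted p = 1.47e-11), Cxcl10 by 0.53 ± 0.105 (adjusted p = 0.000582) and the adhesion molecule gene Icam1 by 0.45 ± 0.089 (adjusted p = 0.000751). Hmgb1, the highest of the endogenous ligand genes by mean value, differed by 0.06 ± 0.071 (adjusted p = 0.667).

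By diet, 11 of the 62 genes were called higher and 9 lower on TWD, or 20 in all. Of all 15897 genes 2546 were called higher and 2132 lower, or 29.4% in all, a share close to that of the 62 genes. The 17 kinases and ubiquitin ligases held 5 of the 9 lower calls, and the lists were not tested as sets. Tab3, which brings kinases to ubiquitin chains, differed by -0.65 ± 0.206 (limma adjusted p = 0.0216), the kinase gene Map3k7 by -0.29 ± 0.096 (adjusted p = 0.0265) and the ubiquitin ligase gene Peli1 by -0.28 ± 0.086 (adjusted p = 0.019). Traf6, the ubiquitin ligase that follows Myd88, differed by -0.23 ± 0.090 (adjusted p = 0.0491), a call that was lost without any 1 of 30 mice. Irf7 differed by 0.46 ± 0.106 (adjusted p = 0.0157), Rel by -0.38 ± 0.102 (adjusted p = 0.0157) and Unc93b1 by 0.24 ± 0.071 (adjusted p = 0.0176). Irf5 (0.20) and the adaptor gene Sarm1 (0.16) were called higher, and the co-receptor gene Tril (-0.19) lower. Among the inhibitors Nfkbib (0.31), Nfkbie (0.21) and Tnip1 (0.22) were called higher and Cyld (-0.26) lower. With 1 mouse left out, the call was lost for Irf5 and Sarm1 without any 1 of 11 mice each, and for Cyld without any 1 of 9. That of Tnip1 was lost without any 1 of 5 mice, AwTw/STD mouse 4, AwTw/TWD mouse 3, AwT+/TWD mouse 3, A+Tw/STD mouse 1 and A+T+/TWD mouse 1. That of Tril was lost without AwTw/TWD mouse 3 or AwT+/TWD mouse 3, and that of Map3k7 without AwTw/TWD mouse 3 (-0.25, adjusted p = 0.0529). In batch 0 alone, where 0 genes of the table were called by diet, none of these was called.

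**Figure D4:**
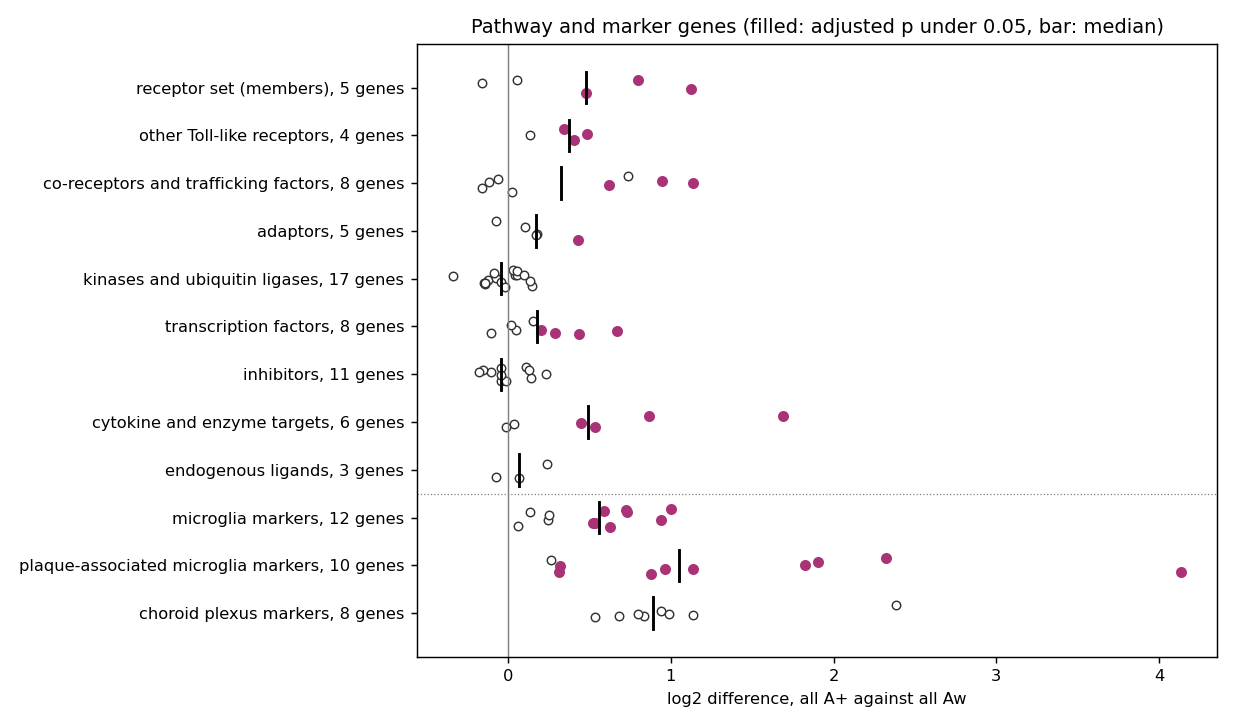
Log2 difference of all A+ against all Aw mice (horizontal axis) for the 5 genes, the other pathway genes by role and 3 marker lists (vertical axis), 1 point per gene, filled for an adjusted p under 0.05, with a bar for the list median. Receptors, co-receptors, transcription factors and targets hold filled points, the 17 kinases and ubiquitin ligases and the 11 inhibitors hold none, and the microglia markers centre on 0.56.

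The 5 genes were also compared by how they varied among mice of a group. Over the residuals of the 45 mice after group and batch, Tlr3 and Tlr7 correlated at r = 0.75, Tlr2 and Tlr3 at 0.43 and Cd14 and Myd88 at 0.41, while Tlr2 and Cd14 correlated at 0.06. The genes most like Tlr3 were Epm2aip1 (r = 0.95), Rfx7 (0.94) and Slc35f1 (0.94), and those most like Tlr7 were Prpf39 (0.87), the microglial receptor gene Gpr34 (0.86) and Psme4 (0.85). For Tlr2 they were Gm8430 (0.72), Wls (0.68) and Slc16a4 (0.63), for Cd14 Abhd15 (0.65), Mfsd2a (0.64) and Cmc2 (0.62), and for Myd88 Cnn3 (0.72), Slc39a1 (0.71) and Mfap4 (0.71). These points share the libraries, the batch correction and the residual component described above, and the correlations are given as a description.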

How the data were processed

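Hippocampal poly(A) RNA of 45 mice was sequenced as single reads. According to the paper's methods and the labels, the authors used Trimmomatic 0.38 for trimming and Bowtie2 2.2.3 to take out rRNA and mitochondrial sequence, quantified transcripts (mm10) with kallisto 0.44.0, summed them per gene with tximport, dropped genes with a low mean count over all samples, transformed the counts with DESeq2 1.22.2 and removed batch with limma 3.38.3. The deposited numbers sit close to log2 units of a count, and the depth of each mouse is unknown. Precision comes from the spread between mice. Every gene has the same mean in both batches (0 genes deviate), so batch was removed without a term for the groups, although the batches, of 20 and 25 mice, hold the groups in unequal numbers. No 2 columns repeat each other and 0 columns belong to other samples.

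Genes were tested on these values with limma 3.58.1 in R 4.3.3, in 1 fit of the 8 groups and batch, with a second fit, without the interaction of genotype and diet, for diet over all genotypes (two-sided, mean trend, Benjamini-Hochberg over 15897 genes, threshold 0.05). The fit was tested on simulated data with independent noise for each gene. That noise lacked the shared residual component, so the test does not cover its effect on the calls. Differences compare separate animals. Symbols and coordinates are from GENCODE M21 (GRCm38), 15695 genes having a symbol. Plots and summaries used Python 3.11.15.

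The members and lists were chosen with earlier results of these data known. All members are named. Of each pathway list, at most 4 genes past the threshold in a comparison of A+Tw or A+T+ with AwTw or in the diet comparison are named, by adjusted p in all A+ against all Aw, or else the highest gene by mean value. The 3 genes most like each member are those with the highest Pearson r of residuals. Alternatives tried were leaving batch out of the fit, either batch by itself, only the groups compared, no mean trend, genes above the 25th percentile, quantile normalization, a nuisance score or (added after the data were seen) the choroid plexus marker mean as a covariate, copied genes counted once, and each mouse left out.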

Additional observations from a re-analysis of the deposited data

Results flagged for a closer look

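In 3 of the 40 combinations of gene and group, 1 mouse lay far from the others of its group by Dixon's test, and chance gives about 1 in 20. Tlr2 was 5.42 in AwT+/STD mouse 2, below the nearest value of 5.79. Tlr7 was 6.52 in AwT+/STD mouse 5, above the nearest value of 5.86. Cd14 was 6.80 in A+T+/TWD mouse 4, below the nearest value of 7.23. The first of these mice changes a Tlr2 call: without it the difference of A+T+ from AwT+ on STD was 0.64 (limma adjusted p = 0.0809).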

How the results depend on the processing

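No paired analysis was possible because the labels give no replicate numbers that groups share. Of the 355 log2 differences of the 5 genes recomputed under other settings, 309 kept their direction and side of the threshold, and of the 1755 with 1 mouse left out 1707 did. Batch 0 alone held 1 A+Tw/STD mouse, taken to vary like the other groups, so no count is given there for A+Tw on STD. In batch 0 alone the number of the 5 genes called was 1 for A+Tw on TWD and 1 for A+T+ on TWD. It was 1 for A+T+ against AwT+ on either diet, and 0 for diet over all genotypes. Among all genes, batch 0 alone called 64 for A+Tw on TWD and 33 for A+T+ on TWD. It called 60 and 46 genes for A+T+ against AwT+ on STD and TWD, and 0 for diet over all genotypes. In batch 1 alone the number of the 5 genes called was 1 for A+Tw on STD, 0 for A+Tw on TWD and 1 for A+T+ on either diet. It was 1 for A+T+ against AwT+ on either diet, 2 for diet in AwTw and 3 for diet over all genotypes (Tlr7 gained). Of the whole table, batch 1 alone called 85 genes for A+Tw on STD and 24 on TWD, and 34 and 26 for A+T+. It called 31 and 34 genes for A+T+ against AwT+ on STD and TWD, 3982 for diet in AwTw and 6498 over all genotypes. With only the groups compared in the fit, 1 of the 5 genes was called for A+Tw on STD and 1 for A+T+ against AwT+ on TWD. Beside these, 66 and 55 genes of the whole table were called. Diet in AwTw gave 1 of the 5 without batch in the fit and 1 with the choroid plexus mean, beside 2490 and 3048 genes. Diet over all genotypes gave 1 without batch, beside 4668 genes of the whole table. With a score of the residual component of its own fit, which can hold part of the diet difference, it gave 0 of the 5, beside 0 genes. The score from the fit of the 8 groups gave 3 of the 5 for A+Tw on either diet (Tlr7 gained), beside 168 genes on STD and 204 on TWD. Fewer mice enter a batch alone, and the cause was otherwise not tested. With 1 mouse left out, the number of the 5 genes called ran from 1 to 2 for A+Tw on STD and for A+T+ against AwT+ on either diet. It ran from 0 to 2 for diet in AwTw and from 1 to 3 for diet over all genotypes.

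Differences that changed sign had not been called, apart from Traf6 and Cyld. In batch 0 alone Tlr3 was 0.55 for A+Tw on STD and -0.11 on TWD, 0.0897 for A+T+ on STD and -0.0858 on TWD, 0.0398 (all A+) and 0.0624 (diet in AwTw), Myd88 -0.19 (A+Tw, STD), -0.15 (A+T+, STD) and -0.10 (all A+), Hmgb1 -0.0584 (all A+), and by diet Tlr7 0.13 and Traf6 0.00080. In batch 1 alone Tlr3 was -0.16 (A+Tw, TWD) and Tlr7 -0.27 (A+T+, STD). With only the groups compared Tlr3 was -0.14 (A+Tw, TWD). With the residual component Tlr3 was 0.26 (A+Tw, STD), 0.0912 (A+T+, STD) and 0.0949 (all A+), Hmgb1 -0.0043 (all A+), and by diet Tlr2 0.0251, Tlr7 0.0975, Traf6 0.0137 and Cyld 0.0087. With 1 mouse left out, Tlr3 ran from -0.42 to 0.10 for A+Tw on STD and from -0.0663 to 0.281 on TWD, and Tlr7 from -0.13 to 0.22 (A+T+, STD).

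Over the whole table the calls for A+Tw on STD ran from 66 to 168 under the other settings (147 as reported). That range leaves out batch 0 alone, with its 1 A+Tw/STD mouse. For A+Tw on TWD the calls ran from 24 to 204 (131). They ran from 34 to 237 (210) for A+T+ on STD and from 26 to 291 (116) on TWD. For A+T+ against AwT+ they ran from 31 to 284 (151) on STD and from 34 to 180 (121) on TWD. They ran from 184 to 1028 (599) for all A+ and from 0 to 3982 (1487) for diet in AwTw. For diet over all genotypes they ran from 0 to 6498 (4678). With 1 mouse left out they ran from 108 to 278 for A+T+ on STD and from 0 to 6072 for diet in AwTw. Keeping genes above the 25th percentile removed Tlr2, Tlr7 and Cd14, so it gave no count of the 5 genes. These genes have low mean values, the depth is unknown, and small differences in them may not be detectable.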
